A study of Homo sapiens with 6 samples.

Results

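RAB genes encode the small GTPases that direct membrane traffic, and the 63 protein-coding genes with a symbol of RAB, a number and at most 1 letter from A to D are described here. The rule that picks them uses only gene type and symbol, from 58302 genes in the table, of which 19817 are protein-coding. The choice of this family and its grouping by place of action were made with earlier results of these data known. MDA-MB-231-DR is a doxorubicin-resistant derivative of MDA-MB-231, a human triple-negative breast cancer cell line with mesenchymal features. RNA of 3 control and 3 cyperotundone-treated libraries of this 1 line was sequenced, and cyperotundone (CYT) is a compound of the sedge Cyperus rotundus. The comparison asked which genes change with CYT in cells that already resist doxorubicin. All 6 libraries share the resistant background, which the study's methods describe as kept with a low dose of doxorubicin. The dose and duration of CYT for these libraries are not given in the sources used here, and the labels name no vehicle for the control.

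A RAB protein is switched on by an exchange factor that loads GTP and switched off by a GTPase-activating protein. When active, it sits on a given membrane through a prenyl anchor and recruits effectors that move, tether or fuse vesicles. Different RAB proteins mark different stations, such as the Golgi, early, recycling and late endosomes and secretory granules. Tumour cells use these routes to recycle receptors and to release vesicles and proteases.

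The control libraries held 14050849 to 17770102 counts in all, and the CYT libraries 13056270 to 14106017. CYT replicate 2 stood apart, with a correlation of log2 CPM, the count scaled to library size, of 0.905 and 0.904 with the other CYT libraries, against 0.970 between those and 0.953 to 0.971 among control libraries. Over all genes, the deviation of a library from its group mean followed the GC content of the gene, with a Spearman correlation from -0.738 in CYT replicate 2 to 0.647 in CYT replicate 3. Genes annotated as antisense took 0.275% ± 0.0203 of counts in control and 0.566% ± 0.0108 in CYT libraries (SD, n = 3). Of 6 genes typical of MDA-MB-231, VIM held 36428 to 44600 counts in control and 11463 to 15720 in CYT libraries, SPARC 331 to 395 and 87 to 126, and AXL 11030 to 14679 and 5446 to 6910, and these 3 were called lower (log2 fold change -1.30, -1.48 and -0.82, adjusted p = 0.005, 0.006 and 0.044 by edgeR). CD44, MSN and CAV1, with log2 fold changes of -0.19, -0.73 and -1.03, were not called. The luminal markers ESR1 and PGR had at most 4 counts in any library, CDH1 had 0 in control and 2 to 16 in CYT libraries, and CD3E and ADIPOQ had 0 in all. Beside these, GATA3 held 33 to 93 counts, ERBB3 95 to 135, TFF1 at most 11, PECAM1 8 to 35, PTPRC at most 7 and CDH5 at most 4. The part of these differences in the results below was not tested.

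Of the 63 RAB genes, 52 had enough counts to be tested, and 12 of these (23.1%) had an adjusted p under 0.05 in the quasi-likelihood test of edgeR, adjusted by Benjamini-Hochberg. The share of all 15572 tested genes called in this way was 28.6%. RAB33A, RAB37, RAB27A and RAB24 were higher in CYT libraries, and RAB27B, RAB26, RAB17, RAB3B, RAB40B, RAB6B, RAB3D and RAB2A were lower. Among all tested genes 15.7% were called higher and 12.9% lower. A call with an absolute log2 fold change over 1 was made for 11 of the 52 tested RAB genes, all of the 12 but RAB2A, and for 27.4% of all tested genes. The groups did not overlap in 18 of the 52 genes, and they did not overlap in 46.1% of all tested genes, both by CPM. The median log2 fold change of the 52 genes was -0.37, with 21 above and 31 below 0, and that of all tested genes was 0.0064. The labels give replicate numbers in both groups but state no pairing. Deviations of same-numbered libraries correlated by 0.188, 0.458 and 0.124, and only replicate 2 correlated most with its own number. With these numbers as a block 22 RAB genes (42.3%) were called, 9 higher and 13 lower, against 39.9% of all genes. Whether the numbers are true pairs was not tested. Without CYT replicate 2 there were 16 calls (30.8%), 5 higher and 11 lower, against 35.5% of all genes. The share of RAB genes called thus lay below that of all genes with all libraries and without CYT replicate 2 and above it with the block, and no difference between the shares was tested. In bulk RNA, fewer cells of a kind and less RNA per cell cannot be told apart.

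**Figure D1:**
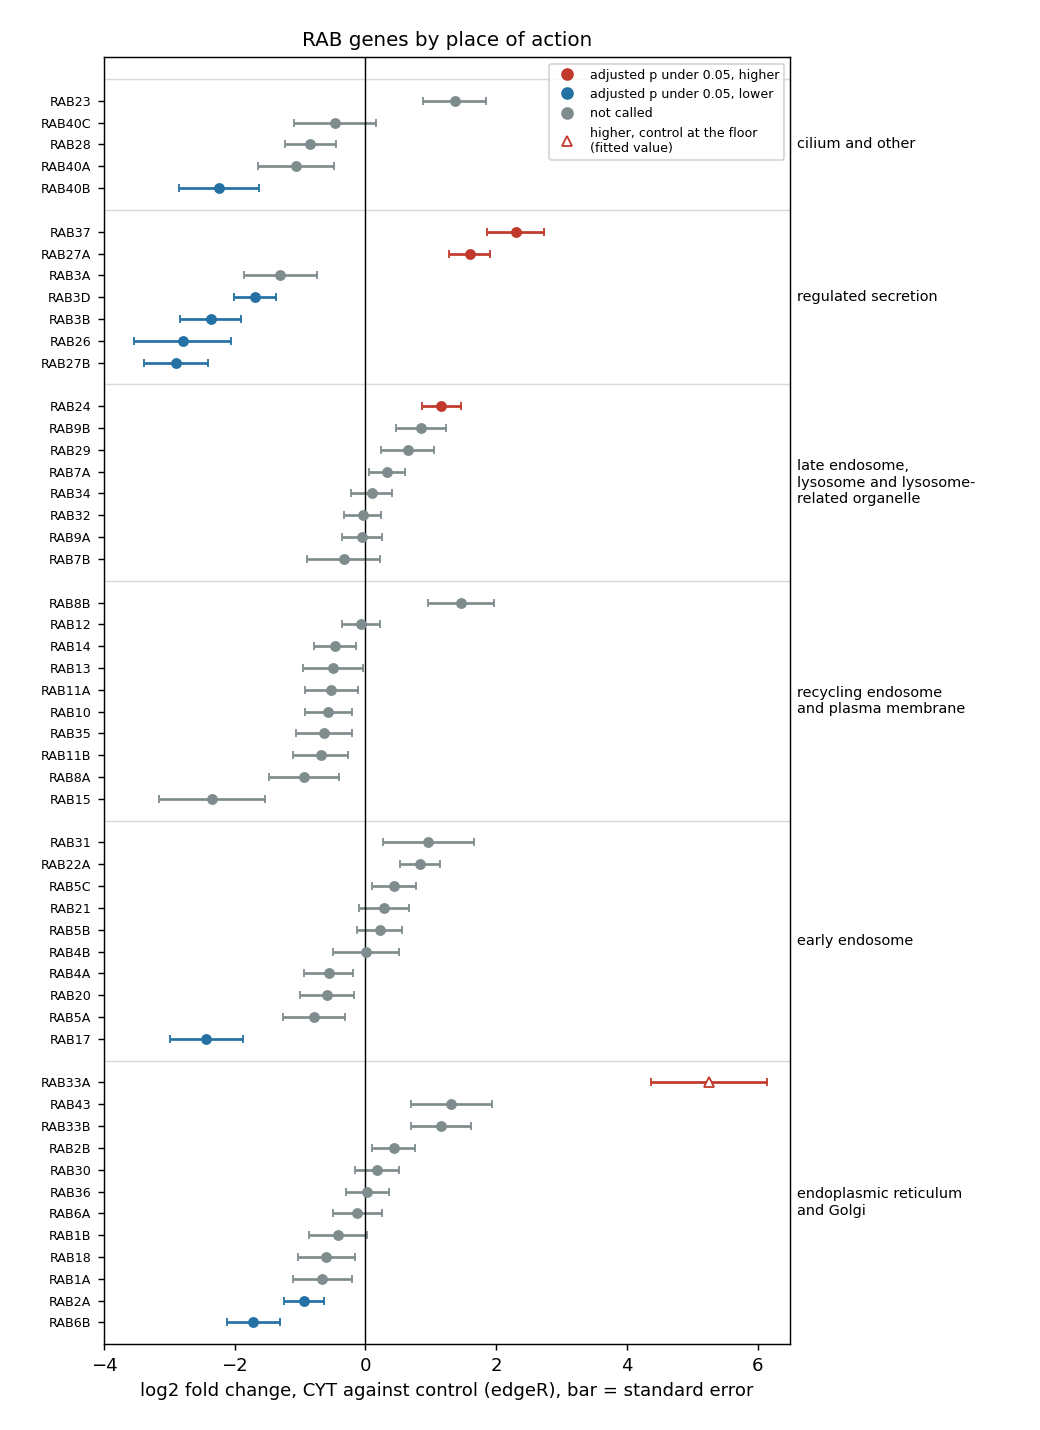
Log2 fold change of CYT against control (horizontal axis) for the 52 tested RAB genes, grouped by where the protein is known to act, with the standard error as a bar. The secretion group holds 6 of the 12 called genes, 4 lower and 2 higher, and the recycling group holds none. Of all tested genes 28.6% were called, and the groups were written by hand with earlier results of these data known. The open triangle of RAB33A is a fitted value against control libraries of 0, 0 and 3 counts.

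The RAB genes spanned a wide range of levels. The 20 most abundant RAB genes by mean FPKM, which is a level per transcript length, included 2 called genes, and the other 32 tested genes included 10. Of all tested genes at or above the level of the 20th RAB gene 24.7% were called, and of those below it 30.2%, and a low gene can pass the count filter through 1 group alone. The median level over all 6 libraries was 0.294 FPKM for the 8 genes called lower, 2.18 FPKM for the 4 called higher and 5.15 FPKM for the 40 not called. RAB1B led with 143 ± 24.1 FPKM in control and 107 ± 53.0 in CYT libraries (SD, n = 3), followed by RAB32 with 96.9 ± 26.5 and 94.2 ± 3.97 FPKM. Next came RAB7A with 39.2 ± 8.89 and 49.7 ± 2.64 FPKM, RAB11B with 45.3 ± 14.0 and 28.4 ± 11.2, and RAB5C with 25.9 ± 8.57 and 35.8 ± 3.55. These 5 genes lie at the Golgi, on lysosome-related organelles and on late, recycling and early endosomes, they held 42.8% to 64.3% of the summed RAB FPKM, and none of them was called. The libraries of RAB1B and RAB32 overlapped in level in both groups, as did those of RAB11B and RAB5C, while RAB7A overlapped RAB11B and RAB5C in control libraries and lay above both in CYT libraries. All RAB genes together took 0.244%, 0.312% and 0.278% of counts in control libraries 1 to 3 and 0.274%, 0.280% and 0.254% in CYT libraries 1 to 3. These shares overlapped, with an exact two-sided permutation p of 0.8, where 3 against 3 libraries cannot give less than 0.1.

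The regulated-secretion group, whose members dock and prime granules and lysosome-related organelles, was called in 6 of 7 tested genes, or 85.7%, beside 28.6% of all genes. It held 4 genes called lower and 2 called higher, and its median log2 fold change was -1.69. The group was written by hand with earlier results of these data known, so nothing is read from its share. RAB26 and RAB3B held at most 8 counts in each CYT library and passed the count filter through control libraries alone. RAB27A and RAB27B are close paralogs that bring secretory vesicles, exosome-bearing endosomes among them, to the plasma membrane. RAB27A (chr15:55202966-55319113, minus strand, coordinates on GRCh38) held 324, 479 and 279 counts in control libraries 1 to 3 and 810, 1202 and 696 in CYT libraries 1 to 3. Every CYT library lay above every control library. The gene rose 3.01-fold, a log2 fold change of 1.59 (SE 0.31, adjusted p = 0.005 by edgeR). RAB27B (chr18:54717860-54895516, plus strand) held 138, 351 and 93 counts in control and 22, 25 and 15 in CYT libraries. It fell in all CYT libraries, by 2.90 on the log2 scale (SE 0.49, adjusted p = 0.003 by edgeR). The genes PIGBOS1 and PIGB overlap the RAB27A locus, PIGBOS1 on the same strand. PIGBOS1 held 199 to 325 counts in control and 128 to 163 in CYT libraries, and PIGB held 221 to 470 and 109 to 207, so the raw counts of both were lower in the CYT libraries.

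Within each library, RAB27A made up 64.4%, 51.3% and 69.8% of the summed FPKM of the pair in control and 96.6%, 97.4% and 97.3% in CYT libraries. The log2 ratio of RAB27A to RAB27B was 0.71 ± 0.58 in control and 5.07 ± 0.21 in CYT libraries (SD, n = 3), a difference of 4.35. This pair had fewer than 30 counts of RAB27B on average in CYT libraries, so it was not among the pairs tested and was examined after its values were seen. The sequences before the start of both genes are given because this pair moved furthest apart. They are the 250 bases upstream of the RefSeq start on GRCh38.p14, read 5′ to 3′ on the strand of the gene, at chr15:55319124-55319373 on the minus strand for RAB27A and chr18:54717607-54717856 on the plus strand for RAB27B. Capitals mark a GC box, written GGGCGG or, on the other strand, CCGCCC.
RAB27A: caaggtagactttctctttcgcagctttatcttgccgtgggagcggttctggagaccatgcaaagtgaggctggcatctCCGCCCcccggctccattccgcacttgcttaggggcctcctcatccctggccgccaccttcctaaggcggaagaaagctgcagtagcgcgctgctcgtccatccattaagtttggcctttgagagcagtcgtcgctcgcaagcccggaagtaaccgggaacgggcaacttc
RAB27B: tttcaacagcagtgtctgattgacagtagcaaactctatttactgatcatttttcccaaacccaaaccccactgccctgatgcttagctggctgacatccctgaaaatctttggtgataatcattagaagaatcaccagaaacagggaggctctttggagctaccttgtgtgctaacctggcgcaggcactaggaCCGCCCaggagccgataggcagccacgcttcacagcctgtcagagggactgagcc
Each window held 1 GC box on the other strand, which lies nearer to the start of the gene in RAB27B. GC made up 58.8% of the RAB27A window, with 17 CpG sites, and 50.4% of the RAB27B window, with 4. A match is a description of the letters and was not tested as a site of binding.

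Of the RAB3 genes, which act on synaptic and secretory vesicles, RAB3B and RAB3D fell. RAB3D (chr19:11322046-11346270, minus strand), the RAB3 of exocrine granules and by mean FPKM over all 6 libraries the most abundant gene of the secretion group, held 841, 760 and 531 counts in control and 211, 217 and 127 in CYT libraries. The groups stood well apart, at 9.22 ± 1.14 against 2.93 ± 0.803 FPKM (SD, n = 3), and the log2 fold change was -1.69 (SE 0.32, adjusted p = 0.004 by edgeR). TMEM205, which overlaps RAB3D on the same strand, held 1252 to 1495 counts in control and 1252 to 1925 in CYT libraries. RAB3B (chr1:51907956-51990764, minus strand) held 43, 46 and 47 counts in control and 7, 7 and 8 in CYT libraries. The 3 libraries of each group held nearly equal counts, and the log2 fold change was -2.37 (SE 0.46, adjusted p = 0.005 by edgeR). RAB3A, the synaptic vesicle RAB, held 71, 34 and 61 counts in control and 30, 9 and 19 in CYT libraries. Its log2 fold change of -1.30 (SE 0.56) had an adjusted p of 0.11 by edgeR, and it passed only with the replicate block, where the adjusted p was 0.038 and the range over 12 alternatives was 0.038 to 0.269. RAB3C had 0 counts in control and 3, 4 and 3 in CYT libraries and was not tested.

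RAB26, a RAB of secretory granules, held 31, 33 and 28 counts in control and 5, 6 and 0 in CYT libraries. All CYT libraries lay below all control libraries, and the log2 fold change was -2.80 (SE 0.74, adjusted p = 0.020 by edgeR). The adjusted p of RAB26 was 0.0553 without control replicate 3 and 0.0526 with the replicate block and the GC content and length correction together. RAB37, which acts in exocytosis of granules, held 16, 21 and 15 counts in control and 81, 48 and 84 in CYT libraries. It rose 4.92-fold (log2 fold change 2.30, SE 0.43, adjusted p = 0.004 by edgeR), from 0.0460 ± 0.00567 to 0.227 ± 0.0594 FPKM (SD, n = 3). RAB44 had at most 3 counts in any library. At the level of FPKM, RAB27A and RAB3D were the only secretion genes with a mean above 5 in either group, and RAB27A rose while RAB3D fell.

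**Figure D2:**
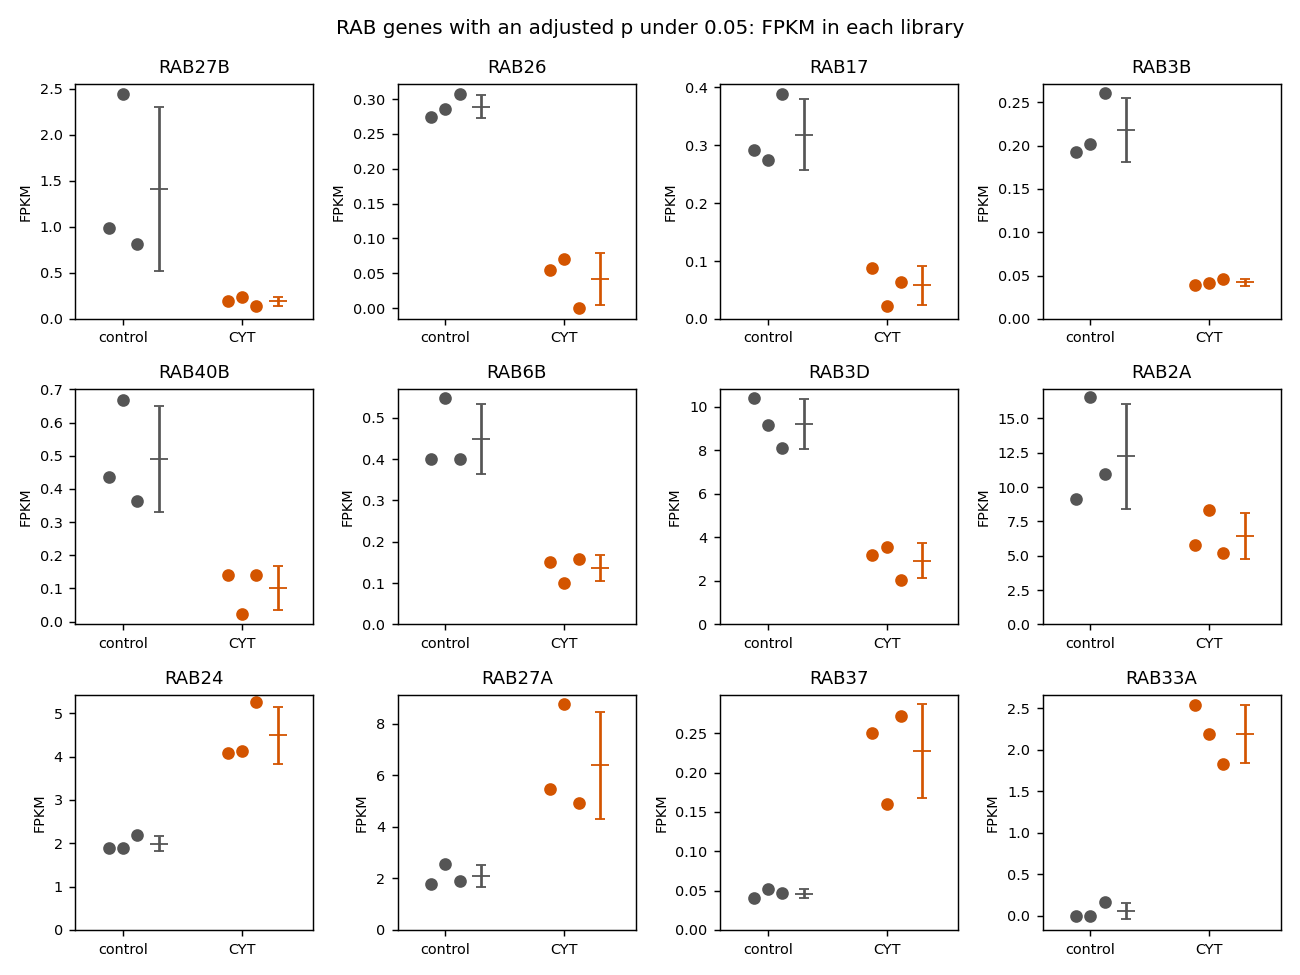
FPKM (vertical axis, a separate linear scale in each panel) of the 12 called RAB genes in the 3 control and 3 CYT libraries, 1 point per library, with the mean and the SD beside the points. In every panel the groups do not overlap, and the levels run from under 0.1 FPKM, as for RAB37 in control libraries, to over 10 FPKM for RAB2A.

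At the endoplasmic reticulum and Golgi, 12 of 15 genes were tested, 1 was called higher and 2 lower. Among all genes 15.7% were called higher and 12.9% lower. RAB33A, which with RAB33B binds the autophagy protein ATG16L1, held 0, 0 and 3 counts in control and 45, 36 and 31 in CYT libraries. Every control library was at the floor of at most 3 counts, so the fold depends on the level taken for control. Against the CPM of 3 counts in control, the mean CPM of CYT libraries was 14.6-fold and the lowest CYT library 13.2-fold. These ratios carry no error of counting or of replicates in the CYT libraries. The fitted log2 fold change of RAB33A had a lower 95% limit of 3.51 (adjusted p = 0.003 by edgeR). Its paralog RAB33B held 64, 141 and 48 counts in control and 130, 241 and 89 in CYT libraries, values that overlap. The log2 fold change of RAB33B was 1.16 (SE 0.46, 95% interval 0.26 to 2.05, adjusted p = 0.087 by edgeR), and with the replicate block the adjusted p was 0.013, in a range of 0.013 to 0.251 over the alternatives. Without control replicate 2 it was 0.047, and without CYT replicate 2 the log2 fold change was 0.70 with an adjusted p of 0.218.

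RAB2A and RAB2B act in traffic between the Golgi and the endoplasmic reticulum. RAB2A held 1315, 2431 and 1275 counts in control and 673, 900 and 579 in CYT libraries. It was the only called gene with a control mean over 10 FPKM, with a log2 fold change of -0.94 (SE 0.31, adjusted p = 0.047 by edgeR). That call was lost without any 1 of control replicates 1, 2 and 3 or of CYT replicates 1 and 3, with adjusted p from 0.068 to 0.157, and with upper-quartile normalisation, where it was 0.087. RAB2B held 396, 682 and 372 counts in control and 543, 714 and 363 in CYT libraries, with no call (log2 fold change 0.43, SE 0.33, adjusted p = 0.35 by edgeR). RAB6B, the paralog of RAB6A found mainly in neurons, held 85, 119 and 69 counts in control and 26, 16 and 26 in CYT libraries. It fell by 1.72 on the log2 scale (SE 0.41, adjusted p = 0.013 by edgeR) with no overlap of the groups. SRPRB, which overlaps RAB6B on the opposite strand, held 872, 1327 and 967 counts in control and 809, 888 and 732 in CYT libraries. RAB6A, which runs Golgi carriers in most cells, held 651 to 1820 counts over all libraries and a log2 fold change of -0.13 (95% interval -0.86 to 0.60). RAB6C and RAB6D are near-identical to RAB6A and had at most 28 counts, so their counts are uncertain.

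RAB1B, the most abundant RAB, needed for transport from the endoplasmic reticulum to the Golgi, held 7587, 5557 and 5734 counts in control and 4896, 1643 and 5279 in CYT libraries. CYT replicate 2 was far below the others, and the log2 fold change was -0.42 (SE 0.44) with it and -0.028 without it. RAB43 held 192, 333 and 775 counts in control and 1172, 408 and 1264 in CYT libraries. These overlapped, with a log2 fold change of 1.31 (SE 0.62, adjusted p = 0.14 by edgeR). With the replicate block its adjusted p was 0.023, in a range of 0.023 to 0.349, and it was 0.039 without CYT replicate 2 and 0.031 without control replicate 3. The readthrough gene ISY1-RAB43, which shares its exons, held 177, 0 and 0 counts in control and 265, 0 and 0 in CYT libraries.

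On early endosomes, where internalised receptors are sorted, 1 of 10 tested genes was called, beside 28.6% of all genes. RAB17, a RAB of polarised epithelial cells that acts in transcytosis, held 53, 51 and 57 counts in control and 13, 3 and 9 in CYT libraries. The groups were far apart, and the log2 fold change was -2.44 (SE 0.56, adjusted p = 0.011 by edgeR). RAB5A, RAB5B and RAB5C, which drive fusion of early endosomes, had log2 fold changes of -0.79, 0.22 and 0.43, and none was called. RAB5C, the most abundant of this group, held 3204, 1723 and 1747 counts in control and 2609, 2214 and 2772 in CYT libraries, which overlapped. AC099811.2, which overlaps RAB5C on the same strand, held 176, 209 and 381 counts in control and 54, 176 and 46 in CYT libraries. RAB5A held 491, 1103 and 382 counts in control and 311, 492 and 131 in CYT libraries and passed with the replicate block alone and with that block and a GC correction, where its adjusted p was 0.031 and 0.021, against 0.24 by the unblocked fit and a range of 0.021 to 0.618. Without CYT replicate 2 its log2 fold change was -1.26. RAB22A held 723, 996 and 705 counts in control and 1101, 1624 and 901 in CYT libraries. The highest control library exceeded the lowest CYT library in raw counts but not in FPKM, at 5.88 against 7.04. RAB22A had a log2 fold change of 0.83 (SE 0.30, adjusted p = 0.065 by edgeR, 0.030 with the replicate block, range 0.027 to 0.186). RAB31 held 582, 386 and 574 counts in control and 237, 2036 and 362 in CYT libraries. By CPM, CYT replicate 2 was above the control range, CYT replicate 3 inside it and CYT replicate 1 below it. The log2 fold change of RAB31 was 0.96 (SE 0.70, adjusted p = 0.33 by edgeR).

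Among genes of recycling endosomes and of delivery to the plasma membrane, none of 10 tested was called by edgeR, beside 28.6% of all genes. An unadjusted p under 0.05 was found for 2. A negative log2 fold change was found in 9 of 10, beside 7746 of all 15572 tested genes. With DESeq2, RAB8B and RAB15 passed, and with the GC content and length correction RAB8B, RAB15, RAB11B, RAB14 and RAB10 passed, with adjusted p of 0.0090, 0.021, 0.022, 0.024 and 0.030 by edgeR. That correction called 46.0% of all genes. For RAB14, which acts between the Golgi and endosomes, the log2 fold change was -0.46 uncorrected and -0.63 corrected. RAB11A and RAB11B, the main RABs of recycling, had log2 fold changes of -0.53 and -0.69. RAB11B, the most abundant of the group, held 2959, 1747 and 2623 counts in control and 1732, 684 and 1484 in CYT libraries. The raw counts just failed to overlap, but the groups overlapped in CPM, with 92.8 in control replicate 2 and 122 in CYT replicate 1. The adjusted p was 0.25 by edgeR and 0.036 with the replicate block, in a range of 0.019 to 0.506. Without CYT replicate 2 the log2 fold change of RAB11B was -0.36. RAB15, which acts in receptor recycling, held 34, 19 and 27 counts in control and 6, 0 and 7 in CYT libraries. The groups did not overlap, and its log2 fold change of -2.35 (SE 0.81) missed the threshold with an adjusted p of 0.055 by edgeR and passed with the replicate block at 0.028, in a range of 0.021 to 0.137. RAB10, which acts in polarised exocytosis, held 1967, 3986 and 1931 counts in control and 1223, 2148 and 1009 in CYT libraries. These overlapped, with a log2 fold change of -0.57 (SE 0.36, adjusted p = 0.27 by edgeR), but without CYT replicate 2 the value was -0.92 and the adjusted p 0.043. RAB15 also passed without CYT replicate 2, with an adjusted p of 0.045.

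RAB8A and RAB8B carry cargo from the Golgi to the plasma membrane and the primary cilium. RAB8B (chr15:63189469-63267782, plus strand) held 454, 1134 and 298 counts in control and 889, 2385 and 881 in CYT libraries. Replicate 2 was the highest in each group, and the groups just met, at 21.4 to 60.2 CPM in control and 62.6 to 169 in CYT libraries after TMM normalisation, and at 3.47 to 10.4 against 10.3 to 29.9 FPKM. The log2 fold change was 1.46 (SE 0.51, adjusted p = 0.056 by edgeR), and with the replicate block it was 1.45 with an adjusted p of 0.0024, in a range of 0.0024 to 0.183. Without control replicate 2 the log2 fold change was 2.02 with an adjusted p of 0.024, and without CYT replicate 2 it was 0.85. RAB8A (chr19:16111629-16134234, plus strand) held 370, 784 and 668 counts in control and 531, 126 and 157 in CYT libraries, where CYT replicate 1 lay inside the control range. Its log2 fold change was -0.94 (SE 0.53, 95% interval -1.98 to 0.11, adjusted p = 0.22 by edgeR), and without CYT replicate 1 the adjusted p was 0.024. Without CYT replicate 2 the value was -0.58.

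Of 9 pairs of paralogs in 7 subfamilies with at least 30 counts on average in each group, the ratio within libraries did not overlap between groups in 3. The share among ratios of other gene pairs was not computed, single genes did not overlap in 46.1% of cases, and nothing is read from this count about the RAB paralogs as a set. The RAB8A to RAB8B ratio moved most over all libraries, from a log2 ratio of -0.48, -0.71 and 0.98 in control to -0.93, -4.42 and -2.67 in CYT libraries. All CYT libraries lay lower, and the mean difference was -2.60, which became -1.73 without CYT replicate 2, where RAB5A to RAB5C moved further, by -1.89. The RAB2A to RAB2B ratio went from 0.86 ± 0.051 to -0.48 ± 0.20 on the log2 scale (SD, n = 3), so RAB2A held 63.7% to 65.3% of the FPKM of that pair in control and 39.5% to 45.7% in CYT libraries. The RAB9A to RAB9B ratio fell from 3.22 ± 0.24 to 2.30 ± 0.096. Each of these 3 differences had an exact two-sided permutation p of 0.1, the smallest that 3 against 3 libraries allow, and 0.3 after Benjamini-Hochberg adjustment over 9 pairs. Between same-numbered libraries, 5 of the 9 ratios moved the same way in all 3 replicate pairs, these 3 and those of RAB5A to RAB5C and RAB5A to RAB5B, where 3 pairs allow no exact two-sided p under 0.25. With a minimum of 10 counts, set after the data were seen, 6 of 15 pairs did not overlap, those of RAB27, RAB40B with RAB40C and RAB6 being added.

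**Figure D3:**
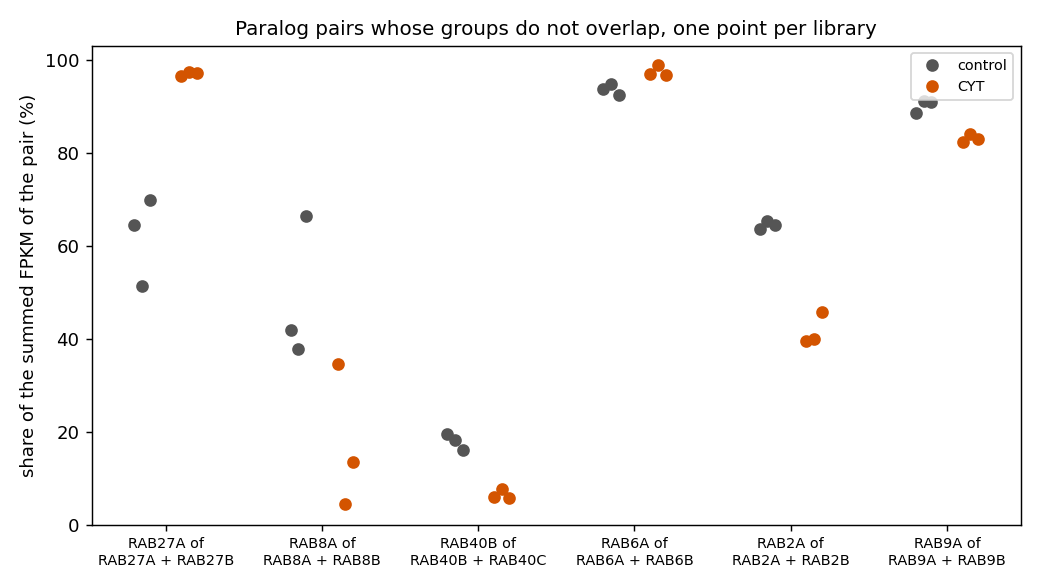
Share of the summed FPKM of a paralog pair held by the first gene (vertical axis, percent) in each of the 3 control and 3 CYT libraries, for the 6 pairs whose groups do not overlap at a minimum of 10 counts. RAB27A goes from 51.3% to 69.8% in control to 96.6% to 97.4% in CYT libraries, while RAB2A goes from 63.7% to 65.3% down to 39.5% to 45.7%.

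The 250 bases upstream of the RefSeq starts of RAB8A (chr19:16111639-16111888, plus strand, GRCh38.p14) and RAB8B (chr15:63189356-63189605, plus strand) are given because theirs was the tested pair that moved most when all 6 libraries were used. Capitals mark GC boxes (GGGCGG or CCGCCC) and CCAAT boxes (CCAAT or ATTGG).
RAB8A: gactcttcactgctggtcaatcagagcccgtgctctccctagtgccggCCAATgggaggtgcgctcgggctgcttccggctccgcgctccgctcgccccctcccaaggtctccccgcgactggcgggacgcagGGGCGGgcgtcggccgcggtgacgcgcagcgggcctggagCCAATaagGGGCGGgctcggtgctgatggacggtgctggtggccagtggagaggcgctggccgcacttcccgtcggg
RAB8B: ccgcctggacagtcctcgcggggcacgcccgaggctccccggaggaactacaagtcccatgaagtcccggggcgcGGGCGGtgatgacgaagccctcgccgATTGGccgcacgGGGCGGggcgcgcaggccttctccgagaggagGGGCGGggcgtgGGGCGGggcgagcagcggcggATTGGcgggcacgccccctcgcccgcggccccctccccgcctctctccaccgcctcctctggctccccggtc
RAB8A held 2 GC boxes and 2 CCAAT boxes with a GC content of 72.4%, and RAB8B held 4 and 2 with 77.2%. Unlike RAB27B, the windows of this pair were rich in CpG sites, with 28 for RAB8A and 33 for RAB8B. Among the 50 RAB genes with a promoter entry, 78% had a GC box on either strand, against 42.3% of 27305 promoters of the same length, and the median GC content was 64.8% against 58%. The 27305 promoters were not limited to protein-coding genes, as the RAB genes are, so the sets are unlike. CCAAT was found in 26% against 33.0%, TATAAA in 8% against 11.1%, CACGTG in 10% against 6.49%, TGACTCA in 4% against 4.16% and TGACGTCA in 2% against 1.77%. Of the 8 called genes with an entry, 7 had a GC box.

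On late endosomes, lysosomes and lysosome-related organelles, 8 of 12 genes were tested and 1 was called, beside 28.6% of all genes. RAB24, an atypical RAB linked to autophagy, held 293, 297 and 273 counts in control and 511, 480 and 627 in CYT libraries. It rose 2.24-fold (log2 fold change 1.16, SE 0.30, adjusted p = 0.018 by edgeR), with no overlap. The call of RAB24 was lost without any 1 of the control replicates or CYT replicate 3, with adjusted p from 0.060 to 0.074. MXD3, which overlaps RAB24 on the same strand, held 963, 312 and 721 counts in control and 815, 418 and 536 in CYT libraries. RAB7A, which drives maturation and fusion of late endosomes, held 2651, 4212 and 3235 counts in control and 3920, 3322 and 3399 in CYT libraries, with a log2 fold change of 0.33 (95% interval -0.20 to 0.87). RAB32, a RAB of melanosome-type organelles and mitochondria, held 1729, 2757 and 1390 counts in control and 1655, 1424 and 1578 in CYT libraries. The interval of its log2 fold change was -0.60 to 0.52. RAB9B, a late endosome RAB, held 38, 36 and 28 counts in control and 50, 62 and 43 in CYT libraries and was not called (log2 fold change 0.85, SE 0.38, adjusted p = 0.125 by edgeR), although the groups did not overlap. RAB38, the close relative of RAB32 in pigment cells, had at most 16 counts.

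Among the remaining RAB genes, 1 of 5 was called, beside 28.6% of all genes. RAB40B, a RAB with a SOCS box that joins ubiquitin ligases and acts in protease secretion, held 96, 151 and 65 counts in control and 25, 4 and 24 in CYT libraries. It fell in every CYT library, by 2.24 on the log2 scale (SE 0.61, adjusted p = 0.022 by edgeR), and the adjusted p was 0.055 without control replicate 1 and 0.060 without control replicate 2. RAB40A and RAB40C had log2 fold changes of -1.06 and -0.47 and were not called. RAB23, a negative regulator of Hedgehog signalling, held 158, 356 and 196 counts in control and 326, 916 and 277 in CYT libraries. In FPKM the groups did not overlap, at 1.35 to 2.97 against 3.06 to 10.4, and the log2 fold change was 1.36 (SE 0.48, adjusted p = 0.059 by edgeR, 0.0099 with the replicate block, range 0.0091 to 0.184). Without CYT replicate 2 it was 0.65, with an adjusted p of 0.154. RAB28, which acts at cilia, held 273, 463 and 165 counts in control and 115, 194 and 98 in CYT libraries. Those overlapped, with a log2 fold change of -0.85 (SE 0.39, adjusted p = 0.133 by edgeR, 0.032 with the replicate block, range 0.0074 to 0.373), and without CYT replicate 2 its adjusted p was 0.036.

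The 11 genes that were not tested were RAB3C, RAB6C, RAB6D, RAB19, RAB25, RAB38, RAB39A, RAB39B, RAB41, RAB42 and RAB44. None had more than 28 counts in any library. RAB25, an epithelial recycling RAB, had 0, 3 and 0 counts in control and 3, 0 and 3 in CYT libraries. RAB42 had 0 counts in all control libraries and 7, 1 and 2 in CYT libraries, and TAF12, which overlaps it on the other strand, held 27 to 50 and 200 to 225. In the fit without a count filter none of the 11 was called by edgeR, 3 had an unadjusted p under 0.05, and the adjusted p ran from 0.093 to 0.753.

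The libraries differed among themselves in the RAB genes along GC content. Across the 52 tested genes, the deviation from the group mean had a Spearman correlation with GC content of 0.440, -0.629 and 0.372 in control and 0.659, -0.687 and 0.475 in CYT libraries 1 to 3. Genes are not independent replicates, and all points of a library share its preparation. Replicate 2 of each group was thus higher in RAB genes of low GC content, such as RAB8B, RAB23 and RAB5A, and lower in those of high GC content, such as RAB1B and RAB11B. The fold changes of the 52 genes had a correlation of -0.063 with GC content. When GC content and length were corrected for, 19 RAB genes (36.5%) were called, against 46.0% of all genes.

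**Figure D4:**
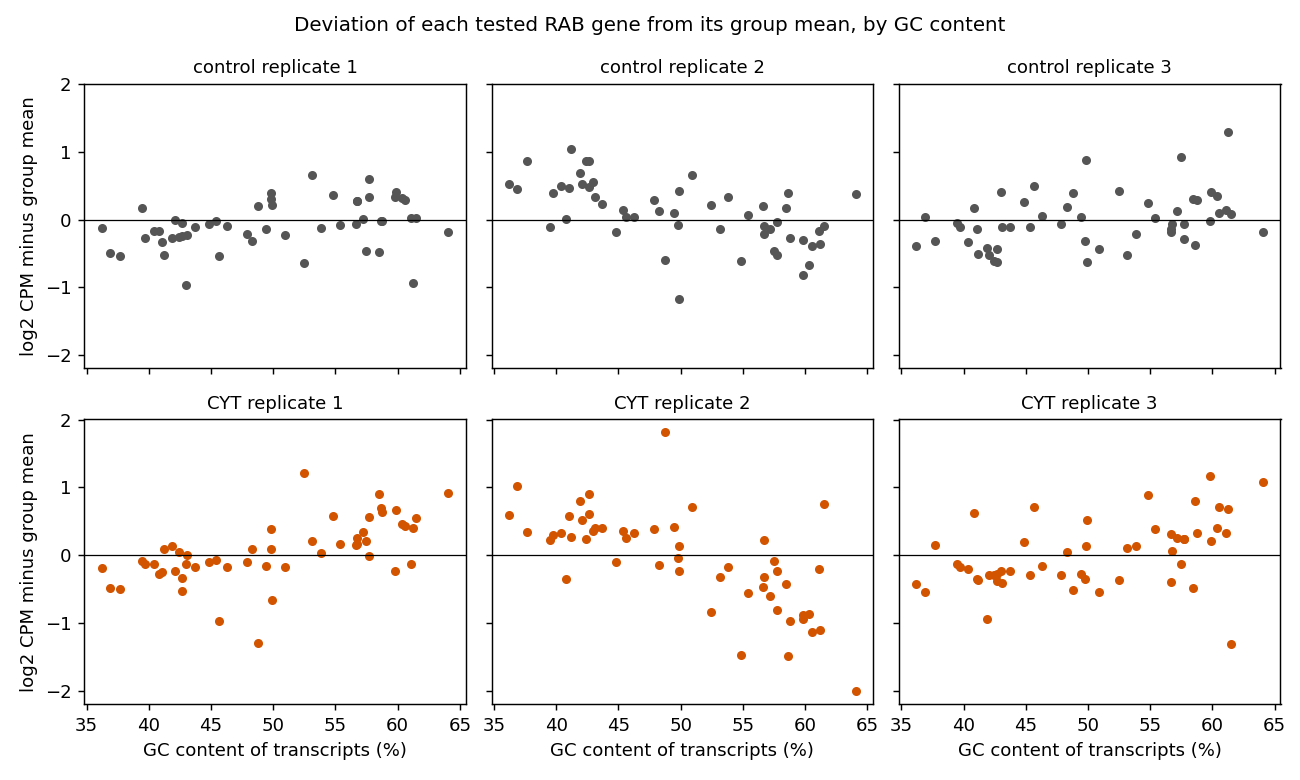
Deviation of log2 CPM from the group mean (vertical axis) against GC content of transcripts in percent (horizontal axis) for the 52 tested RAB genes, 1 panel per library. The points of replicate 2 fall with GC content in control and in CYT, and those of replicates 1 and 3 rise.

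Calls among the genes that prenylate, switch and read RAB proteins made up 18.4% to 27.7% of each list, beside 28.6% of all genes. Of 8 genes for prenylation and recycling, all tested, 2 fell and none rose. They were RABGGTB, the catalytic subunit of the RAB geranylgeranyl transferase, with 7.37 ± 2.86 FPKM in control and 1.98 ± 1.32 in CYT libraries (SD, n = 3, adjusted p = 0.012 by edgeR), and RABIF, a chaperone of nucleotide-free RABs, with 13.4 ± 2.33 and 5.57 ± 0.272 FPKM (adjusted p = 0.010 by edgeR). The transferase subunit RABGGTA, the escort genes CHM and CHML and the extraction gene GDI2 were not called in the unblocked fit. With the replicate block 3 of the 8 (37.5%) were called, against 39.9% of all genes. The GC content and length correction also gave 3 (37.5%), against 46.0%.

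Of 48 activator genes, 47 were tested, 2 rose and 11 fell. TRAPPC6A, a subunit of the TRAPP exchange complexes, rose (log2 fold change 1.75, SE 0.38, adjusted p = 0.009 by edgeR), as did MON1B, part of the exchange factor for RAB7 (log2 fold change 0.999, SE 0.33, adjusted p = 0.046). DENND3, TRAPPC9, RAB3IL1 and TRAPPC5 fell most among genes of at least 1 FPKM, with log2 fold changes of -2.36, -2.17, -2.14 and -2.05. RAB3IL1 is an exchange factor for RAB3A and RAB8 and went from 1.88 ± 0.523 to 0.427 ± 0.253 FPKM (SD, n = 3). Of 39 GTPase-activating genes, 38 were tested, 1 rose and 6 fell. TBC1D2, a GTPase-activating gene for RAB7, rose with a log2 fold change of 1.53, and TBC1D25, which acts on RAB33B, fell with -2.55. TBC1D22A, TBC1D14 and TBC1D7 followed, with -2.39, -1.82 and -1.71. With the replicate block, 21 activators (44.7%) and 17 GTPase-activating genes (44.7%) were called, against 39.9% of all genes, and with the GC content and length correction 26 (55.3%) and 16 (42.1%), against 46.0%. Both lists thus lay below the share of all genes in the unblocked fit and above it with the block, with no test of the difference. Among the activators and GTPase-activating genes named here, the calls lost when 1 library was left out were those of MON1B (control replicate 2 or 3, CYT replicate 1 or 3), TRAPPC5 (control replicate 1 or 3, CYT replicate 3), RAB3IL1 (control replicate 1), TBC1D14 (any control replicate, CYT replicate 3) and TBC1D2 (control replicate 3, CYT replicate 3), with adjusted p up to 0.167, 0.104, 0.072, 0.076 and 0.057.

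Of 50 effector genes, 46 were tested, 3 rose and 6 fell. VPS39, a subunit of the HOPS complex that tethers RAB7 membranes, rose from 1.19 ± 0.495 to 4.91 ± 1.42 FPKM (SD, n = 3, log2 fold change 2.04, SE 0.40, adjusted p = 0.005 by edgeR). GCC2, a golgin, and INPP5B, a phosphoinositide phosphatase, rose with log2 fold changes of 1.16 and 1.003. UNC13D, which primes granules with RAB27A, fell from 22.2 ± 5.39 to 6.47 ± 2.67 FPKM (log2 fold change -1.79, SE 0.43, adjusted p = 0.013 by edgeR). MLPH, the adaptor between RAB27A and myosin on melanosomes, fell from 4.65 ± 1.19 to 0.956 ± 0.436 FPKM (log2 fold change -2.30, SE 0.43, adjusted p = 0.004 by edgeR). RAB27A itself rose, as given above. PPM1H, a phosphatase of RAB proteins, and KIF20A, a kinesin that binds RAB6, fell with log2 fold changes of -1.57 and -1.35. Of the synaptotagmin-like effectors of RAB27, SYTL1 to SYTL4 were tested and not called, and SYTL3 came nearest with a log2 fold change of 0.89 (adjusted p = 0.088 by edgeR). With the replicate block 11 effectors (23.9%) were called, against 39.9% of all genes, and with the GC content and length correction 18 (39.1%), against 46.0%. Among the effectors named here, the calls lost without 1 library were those of INPP5B (all but CYT replicate 2), GCC2 (control replicate 1 or 3, CYT replicate 1) and KIF20A (control replicate 1), with adjusted p up to 0.089, 0.109 and 0.051.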

How the data were processed

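RNA-seq of 3 control and 3 CYT libraries of MDA-MB-231-DR cells was analysed, grouped by the sample titles. The counts, which the authors deposited unscaled, came from cleaned NovaSeq reads mapped with Hisat2, and the submitters' processing notes name hg38 and FastQC 0.12.1. The counting program, its strand setting and the annotation are not given in the sources used here. The authors also deposited FPKM values per gene, computed with Stringtie according to the paper's methods. No value column was left without a sample.

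Genes were filtered with filterByExpr (minimum count 10), normalised by TMM and tested with the quasi-likelihood test of edgeR 4.0.16 in R 4.3.3 over 15572 genes, called at an adjusted p under 0.05. The common biological variation between replicates was 37.5%. CPM values are TMM-normalised, and FPKM values are as deposited. Ratios of paralogs and the RAB share of counts were compared by exact permutation. Every RAB gene could be named, with values per library for all called genes and for the most abundant gene of each group. Of each regulator list the called genes with the largest changes, at most 4 each way and of at least 1 FPKM, were named. Members, lists and roles were chosen with earlier results of these data known. Promoters came from RefSeq on GRCh38.p14, where 50 of 63 genes matched, and protein sequences were not used here.

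Same-numbered libraries of the groups had correlations of their deviations of 0.188, 0.458 and 0.124, so the replicate numbers of the labels were taken as pairs, although control replicate 1 with CYT replicate 3 (0.303) and control replicate 3 with CYT replicate 1 (0.201) correlated more than replicates 1 and 3 did with their own numbers. The labels do not say whether replicates were separate cultures, so p-values measure the spread between these libraries. Replicates of a group differed by a chi-square per gene of at least 25.2, so none was counted as a copy. Alternatives were upper-quartile normalisation, no count filter, the replicate block, DESeq2 1.42.0 and leaving out each library in turn, and, added after the data were seen, correction for GC content and length with and without the block. Intervals are at 95%, and a group with at most 3 counts in each library was taken as at the floor.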

Additional observations from a re-analysis of the deposited data

Results flagged for a closer look

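RAB11B-AS1, an antisense gene at the RAB11B locus that is outside the protein-coding RAB genes, was detected above its control level. It held 10, 19 and 45 counts in control and 211, 91 and 197 in CYT libraries, or 1.62 ± 1.41 and 12.3 ± 5.08 CPM (SD, n = 3). All CYT libraries lay above all control libraries. The log2 fold change was 2.94 (SE 0.63, adjusted p = 0.008 by edgeR, 0.0015 with the replicate block). RAB11B itself, on the opposite strand, had a log2 fold change of -0.69 and was not called. Whether reads were counted by strand is not given in the sources used here, so reads of both genes where they overlap may not be told apart. Antisense genes as a class took a larger share of counts in CYT libraries, and the part of this in the result was not tested. Of 25 other genes named after a RAB gene, 6 had at least 10 counts in a library.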

How the results depend on the processing

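The number of RAB genes called, 12, was 22 with the replicate block, 19 with the GC content and length correction, 21 with both, and 9 to 16 when 1 library was left out. The calls higher, 4, were 7 with upper-quartile normalisation, 8 with DESeq2, 9 with the block, 8 with block and GC correction, and 3 to 5 without 1 library, and the calls lower, 8, were 13 with the block, with the GC correction and with both, and 6 to 11 without 1 library. For GTPase-activating genes the count of 7 became 17 with the block, 12 with DESeq2, 16 with the GC correction, 14 with both, and 4 (without control replicate 1 or 3 or CYT replicate 3) to 10. For activators 13 became 21 with the block, 26 with the GC correction with and without the block, and 8 (without control replicate 1) to 17. For effectors 9 became 18 with the GC correction, 19 with both, and 4 (without control replicate 1) to 15 (without CYT replicate 2). The median log2 fold change of -0.37 was -0.22 with upper-quartile normalisation, -0.047 without the filter, -0.28 with the block, -0.34 with DESeq2, -0.50 with the GC correction, -0.48 with both, and -0.40 to -0.11 (without control replicate 2) without 1 library, while the median of all genes moved to 0.16, 0.41 and -0.12 with upper-quartile normalisation, no filter and the GC correction. The RAB share difference of -0.0089 percentage points ran from -0.026 to 0.0082, the latter without control replicate 2. Non-overlapping paralog ratios numbered 3 to 5 (5 without CYT replicate 2) and 6 at a minimum of 10 counts. Signs were followed for the 12 called RAB genes and 16 others, and not for the remaining tested genes, RAB6A among them. Among those followed, the sign turned for RAB32 (0.10 with upper-quartile normalisation, -0.15 to 0.14 without 1 library). It also turned for the log2 ratios of RAB11A to RAB11B (-0.31 to 0.93), RAB5B to RAB5C (-0.48 to 0.022) and RAB1A to RAB1B (-0.60 to 0.81). The causes were not tested. Of the 12 called RAB genes, 8 were called in all 12 alternatives, RAB24, RAB26, RAB40B and RAB2A were not, and none turned. Among RAB genes the block changed no other call than those given beside the results. Genes of low counts were tested only in the fit without the filter.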
